A study of Mus musculus with 44 samples.

Results

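The proteasome genes of the mouse were followed in liver, spleen and bone marrow after treatment with 2BE. They were taken as every gene whose single annotated symbol begins with Psma, Psmb, Psmc, Psmd or Psme followed by a digit, which gave 44 of 18193 genes on the array. Of these, 42 encode proteasome subunits, activators or assembly factors. The other 2 (Psmc3ip and Psme3ip1) are none of these, were taken in by the letters of their symbols and were counted apart. Psme2 has no value here, because its only probe set is annotated to more than 1 symbol. The rule reads gene symbols and no measured value, but the members were chosen with earlier results of these data known. The symbol of every member was unchanged in a current gene table.

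The animals were B6C3F1 mice, a hybrid strain, given either vehicle or 2BE (2-butoxyethanol, a glycol ether solvent whose metabolite lyses red blood cells in rodents). Liver and spleen were taken at 4 h and 7 d and bone marrow at 7 d. Each array is a sample of whole tissue: a piece of the left lateral liver lobe, the marrow of the right humerus, or part of a spleen cross-section. The number of arrays with vehicle and with 2BE was 3 and 4 for liver at 4 h, 4 and 4 for spleen at 4 h, 4 and 5 for liver at 7 d, and 5 and 5 for both bone marrow and spleen at 7 d. All mice were killed under ketamine and acepromazine anaesthesia. Groups follow the sample titles, which name vehicle or 2BE; a separate treatment label reads "control" or "reduced oxygen". The dose, route, sex and age are not given in the sources used here, and nothing states whether replicates are separate animals, so the p-values measure the spread between these samples. Values are array intensities on a linear scale, and changes are differences of log2(intensity + 1), 2BE minus vehicle, each with its standard error (SE).

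The proteasome is the protease that degrades proteins tagged with ubiquitin. Its barrel-shaped 20S core is built of alpha subunits (Psma genes) and beta subunits (Psmb genes), of which Psmb5, Psmb6 and Psmb7 carry the active sites. In lymphoid and interferon-exposed cells these are replaced by Psmb8, Psmb9 and Psmb10, giving the immunoproteasome, which favours peptides that fit MHC class I molecules. The 19S regulatory particle, which binds, unfolds and feeds in the substrate, consists of ATPases (Psmc genes) and other base and lid subunits (Psmd genes). Other caps can take its place: PA28 alpha and beta (Psme1, Psme2), PA28 gamma (Psme3) and PA200 (Psme4).

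The promoters of the genes on which the results turn are shown first, as the 250 bases before the RefSeq start (GRCm38.p6). Psmb8 (chr17:34197945-34198194, plus strand) and Psmb10 (chr8:105938393-105938642, minus strand) are immunoproteasome genes that were lower, Psmd9 (chr5:123227940-123228189, plus strand) and Psme3 (chr11:101315963-101316212, plus strand) were higher, and Psmb5 (chr14:54617996-54618245, minus strand) is the constitutive counterpart of Psmb8. Capitals mark matches to the motifs searched on both strands, which are given below.
Psmb8: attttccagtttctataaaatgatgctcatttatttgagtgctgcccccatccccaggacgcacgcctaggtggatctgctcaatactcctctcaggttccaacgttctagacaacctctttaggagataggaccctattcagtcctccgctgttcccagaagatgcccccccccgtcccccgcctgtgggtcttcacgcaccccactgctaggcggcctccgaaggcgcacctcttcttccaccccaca
Psmb10: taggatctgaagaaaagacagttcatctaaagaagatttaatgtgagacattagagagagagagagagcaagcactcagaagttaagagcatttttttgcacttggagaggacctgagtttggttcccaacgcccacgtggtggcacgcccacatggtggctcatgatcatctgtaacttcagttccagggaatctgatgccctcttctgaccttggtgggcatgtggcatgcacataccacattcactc
Psmb5: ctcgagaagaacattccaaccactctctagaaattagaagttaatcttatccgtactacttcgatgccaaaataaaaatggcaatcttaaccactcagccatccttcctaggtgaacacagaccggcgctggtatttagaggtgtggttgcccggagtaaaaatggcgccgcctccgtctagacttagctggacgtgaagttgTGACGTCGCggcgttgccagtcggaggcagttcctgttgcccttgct
Psmd9: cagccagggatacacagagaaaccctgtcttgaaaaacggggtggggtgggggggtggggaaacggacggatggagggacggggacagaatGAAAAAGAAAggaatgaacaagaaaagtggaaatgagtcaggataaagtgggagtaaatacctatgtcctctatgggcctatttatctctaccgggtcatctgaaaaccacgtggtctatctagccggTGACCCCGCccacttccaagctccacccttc
Psme3: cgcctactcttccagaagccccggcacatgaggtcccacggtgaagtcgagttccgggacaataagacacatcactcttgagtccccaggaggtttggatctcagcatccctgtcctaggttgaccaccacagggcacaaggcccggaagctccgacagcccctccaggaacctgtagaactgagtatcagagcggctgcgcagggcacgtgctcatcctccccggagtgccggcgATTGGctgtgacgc

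Promoters were found for 37 of the 44 members. The antioxidant response element core TGACNNNGC, the binding sequence of the Nfe2l1 and Nfe2l2 factors that drive constitutive proteasome genes, was matched in 5 of these 37 members (Psmb5, Psmb6, Psmc6, Psmd12 and Psmd9), beside 10.2% of all 32851 promoters of the same length. In Psmb5 it lies 47 to 39 bases before the start, and in Psmd9 31 to 23 bases before it. The interferon-stimulated response element core, GAAA followed after any 2 bases by a second GAAA, was matched in Psmb3, Psmd4 and Psmd9, 3 of 37, beside 2.98% of all promoters; the Psmd9 match lies 159 to 150 bases before the start. CCAAT was matched in 16 of 37 members, among them Psme3, beside 33.8% of all promoters. The motifs do not overlap in the windows shown, and a match is a description of letters only. On the chromosome, Psmb9, Tap1, Psmb8 and Tap2 stand next to each other in this order, and Psmb5 stands next to Psmb11.

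Array medians were 41.2 to 42.4 in liver at 4 h, 86.9 to 89.1 in spleen at 4 h, 50 to 52.2 in liver at 7 d, 86.1 to 89.4 in bone marrow and 109 to 112 in spleen at 7 d. Each tissue and time thus forms a set of its own, which may have been normalized separately, and levels were compared only within a set. Replicates of a group correlated at 0.982 or above over all genes. Tissue markers fitted the labels: summed hepatocyte markers reached 142000 to 161000 on the vehicle liver arrays at 4 h, summed neutrophil markers 160000 to 169000 on the vehicle marrow arrays, and summed B cell markers 35100 to 41600 on the vehicle spleen arrays at 7 d.

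In the spleen at 7 d the 3 immunoproteasome subunits fell to below the lowest vehicle value on every 2BE array, while the regulatory particle and several assembly and activator genes rose. By limma with Benjamini-Hochberg adjustment over all genes, 22 members were higher and 8 lower at an adjusted p under 0.05, which is 68.2% of the 44 members. Of all genes, 64.4% passed (32.4% higher and 32% lower). The members' share is near that of all genes and is no result about them, so they are described by role. Among genes that pass a filter on low values, more were lower than higher, with the shares given at the end. All 2BE arrays lay above all vehicle arrays for 23 members, beside 20% of all genes, and below them for 8, beside 26.7%. In bulk tissue, fewer cells of a type and less RNA per cell cannot be told apart.

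**Figure D1:**
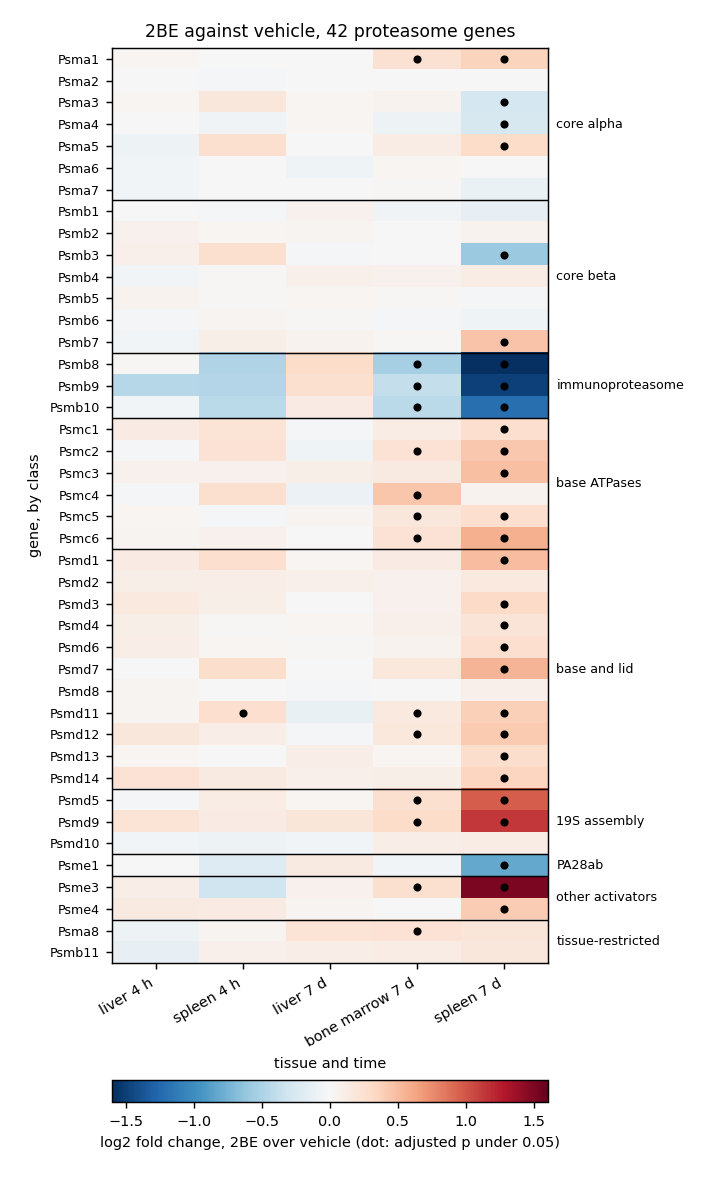
Change of the 42 proteasome genes in each tissue and time set, as the log2 difference 2BE minus vehicle (colour, from -1.6 to 1.6), with a dot where the adjusted p is under 0.05 and lines between the classes. The immunoproteasome rows are blue in spleen and marrow at 7 d, the Psmc and Psmd rows are mostly red in spleen at 7 d, and the liver columns carry no dot.

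Psmb8, which replaces Psmb5 in the immunoproteasome, had intensities of 4796, 4567, 4445, 4454 and 4657 on the vehicle arrays of the spleen at 7 d and 1469, 964, 1645, 1641 and 2079 on the 2BE arrays. The arms were far apart, and the fall was 3.03-fold (log2 change -1.60, SE 0.14, adjusted p = 6.6e-08). Its second, dimmer probe set changed by -1.24. Psmb9, which replaces Psmb6, read 3297, 2911, 2679, 2805 and 3103 with vehicle and 1040, 677, 1218, 1133 and 1278 with 2BE. It was 2.82-fold lower (-1.50, SE 0.13, adjusted p = 6.0e-08), again without overlap. Psmb10, which replaces Psmb7, read 1796, 1681, 1637, 1707 and 1743 with vehicle and 821, 501, 853, 721 and 880 with 2BE, a 2.31-fold fall (-1.21, SE 0.11, adjusted p = 1.1e-07). In all 3 genes the second 2BE replicate was the lowest array.

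Psme1, the PA28 alpha subunit that caps the core and is also induced by interferon gamma, fell less. It read 4311, 4242, 4090, 4056 and 3976 with vehicle and 2387, 1951, 2371, 2401 and 2664 with 2BE, and was 1.76-fold lower (-0.82, SE 0.08, adjusted p = 1.5e-07).

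Their constitutive counterparts did not fall with them. Psmb5, with chymotrypsin-like activity, read 2173, 2226, 2038, 2236 and 2183 with vehicle and 2463, 1947, 2035, 2117 and 2164 with 2BE; the arms overlapped and the change was -0.02 (SE 0.08, adjusted p = 0.82). Psmb6, with caspase-like activity, read 1586, 1593, 1477, 1520 and 1498 against 1619, 1371, 1308, 1461 and 1590, a change of -0.07 (SE 0.07, adjusted p = 0.44). Psmb7, with trypsin-like activity, rose 1.37-fold from 2487, 2757, 2582, 2638 and 2657 to 3782, 3575, 3204, 3754 and 3705 (0.46, SE 0.08, adjusted p = 7.4e-05). Within pairs, the log2 change of Psmb8 relative to Psmb5 was -1.58, of Psmb9 relative to Psmb6 -1.43, and of Psmb10 relative to Psmb7 -1.66.

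**Figure D2:**
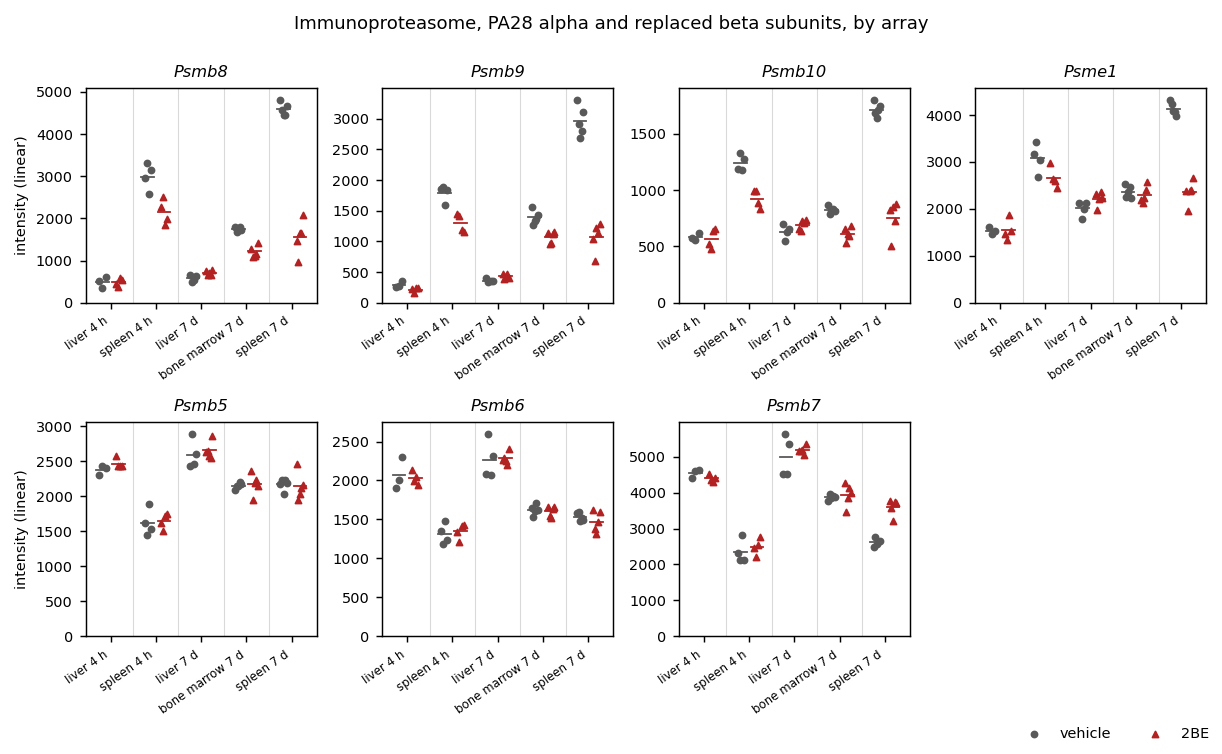
Intensity (linear scale) on every array of the immunoproteasome genes Psmb8, Psmb9 and Psmb10, of Psme1, and of the constitutive Psmb5, Psmb6 and Psmb7, with vehicle as grey circles, 2BE as red triangles and the group mean as a line. In the spleen at 7 d the vehicle arrays of Psmb8 sit between 4445 and 4796 and the 2BE arrays between 964 and 2079, while the arms of Psmb5 and Psmb6 overlap.

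The 20S core outside the immunoproteasome moved in both directions. Changes ran from -0.28 to 0.36 among core alpha genes and from -0.59 to 0.46 among constitutive core beta genes. Of 7 core alpha genes 2 rose and 2 fell, with a median change of -0.01. Of 7 constitutive core beta genes 1 rose and 1 fell, with a median of -0.02. Over all genes 32.4% were higher and 32% lower, and the median was 0.05. Psma3, an alpha ring subunit, read 5152, 4422, 4479, 4465 and 4620 with vehicle and 3791, 3622, 3465, 3782 and 4358 with 2BE (-0.28, SE 0.06, adjusted p = 0.00068). Psma4 fell from 2538, 2649, 2589, 2644 and 2707 to 2378, 2014, 1999, 2204 and 2395 (-0.26, SE 0.06, adjusted p = 0.0015). In neither gene did the arms overlap. Psma1 and Psma5 were the alpha genes that rose, by 0.36 and 0.29, and the call on Psma1 was lost when all its probe sets were averaged. The structural beta subunit Psmb3 read 1638, 1732, 1578, 1613 and 1662 with vehicle and 1059, 992, 1009, 1028 and 1413 with 2BE (1.51-fold lower, -0.59, SE 0.08, adjusted p = 6.5e-06). Its other probe set disagreed, with a change of -0.04, and the average of both was -0.32.

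Most genes of the 19S regulatory particle rose. Of its 17 genes 14 were higher and none lower, beside 32.4% and 32% of all genes. All 17 had a positive sign, and the changes ran from 0.05 to 0.56 with a median of 0.31. Over all genes the median absolute change was 0.28, and the 10th to 90th percentile ran from -0.77 to 0.49. The share of positive signs over all genes was not counted. The count of 14 was found under all 9 alternative settings that kept every array, and it was 13 or 14 on leaving out each array. By part, 5 of 6 ATPases and 9 of 11 other subunits passed; Psmc4, Psmd2 and Psmd8 did not.

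Psmc6, an ATPase of the base, read 1262, 1237, 1322, 1400 and 1352 with vehicle and 2158, 1938, 1743, 1916 and 1976 with 2BE, a 1.48-fold rise without overlap (0.56, SE 0.08, adjusted p = 5.8e-06). Its 2 other probe sets changed by 0.78 and 0.57. Psmd7, a lid subunit, read 538, 489, 492, 523 and 493 with vehicle and 757, 676, 640, 861 and 782 with 2BE (1.46-fold higher, 0.54, SE 0.12, adjusted p = 0.00050), or 0.285 as the average of its probe sets. The ATPases Psmc3 (0.49) and Psmc2 (0.43) and the base subunit Psmd1 (0.49), a scaffold on which ubiquitin receptors sit, also rose without overlap of the arms.

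Larger rises stood outside the particle itself. Psmd9 and Psmd5 are chaperones that assemble the ATPase ring and leave it before it is complete. Psmd9 read 294, 316, 328, 380 and 325 with vehicle and 801, 739, 626, 721 and 716 with 2BE, a 2.19-fold rise (1.13, SE 0.16, adjusted p = 6.8e-06); its dimmer probe sets changed by 0.27 and 0.17, and the average of all was 0.53. Psmd5 read 514, 625, 644, 661 and 584 against 1263, 1227, 1160, 1303 and 994, a 1.96-fold rise (0.97, SE 0.12, adjusted p = 1.1e-06). The third chaperone, Psmd10 (gankyrin), changed by 0.12 and did not pass (adjusted p = 0.12).

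Of the caps, Psme3 (PA28 gamma, a nuclear activator of ubiquitin-independent degradation) read 452, 608, 660, 676 and 650 with vehicle and 1689, 1702, 1785, 1998 and 1429 with 2BE. Every 2BE array was above the highest vehicle array, and the rise was 2.83-fold (1.50, SE 0.12, adjusted p = 4.2e-08); a second probe set changed by 1.42 and a dim one by 0.23. PA28 alpha was lower in these same samples. Psme4, the PA200 activator known for histone degradation, read 1303, 1262, 1296, 1295 and 1250 against 1803, 1702, 1657, 1677 and 1682 (1.33-fold higher, 0.41, SE 0.07, adjusted p = 7.6e-05). Psma8, a testis subunit, and Psmb11, a thymus subunit, did not pass in the spleen at 7 d.

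**Figure D3:**
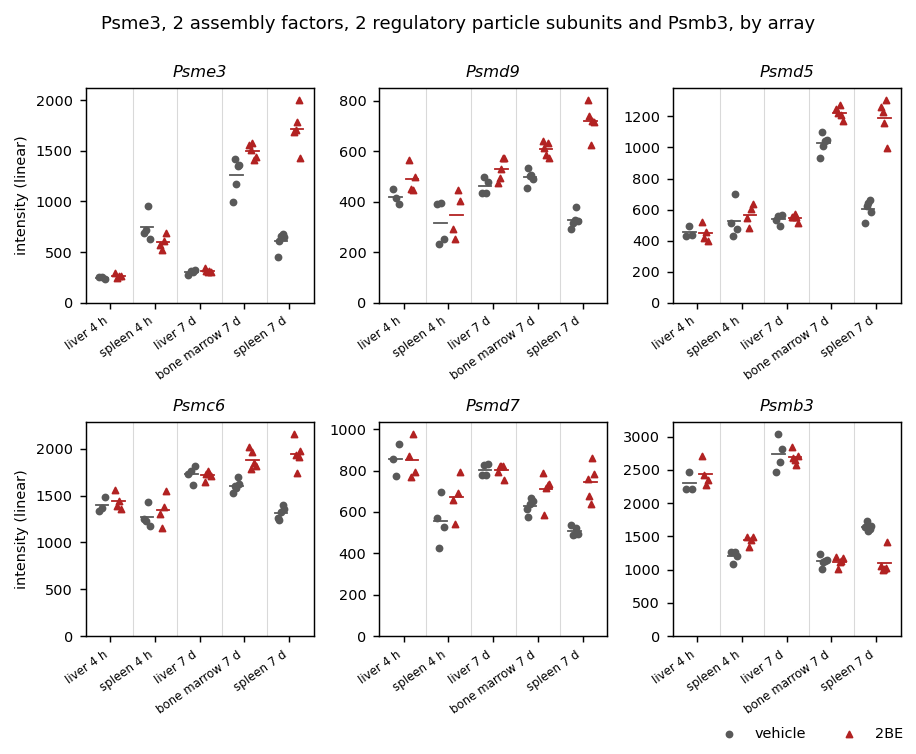
Intensity (linear scale) on every array of Psme3, Psmd9, Psmd5, Psmc6 and Psmd7 and of Psmb3, with vehicle as grey circles, 2BE as red triangles and the group mean as a line. In the spleen at 7 d the vehicle arrays of Psme3 sit between 452 and 676 and the 2BE arrays between 1429 and 1998; Psmb3 goes the other way.

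Of the pair taken in by name only, Psmc3ip, a meiotic recombination factor, rose 2.65-fold (119, 157, 127, 139 and 142 with vehicle, 387, 359, 303, 439 and 344 with 2BE; 1.41, SE 0.19, adjusted p = 4.1e-06). Psme3ip1, which binds PA28 gamma, was slightly lower (-0.16, SE 0.05, adjusted p = 0.017), a call that a further quantile normalization ended (-0.07, adjusted p = 0.26), as did the replicate number as a block (adjusted p = 0.057).

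Genes of the wider pathway also went both ways in the spleen at 7 d, where 32.4% of all genes were higher and 32% lower. Of 11 further assembly chaperones and proteasome-bound factors 5 rose and 3 fell, led by Psmf1 (PI31, which binds the core; 1.66, SE 0.13, adjusted p = 3.0e-08) with Usp14, a deubiquitinase of the base (0.79), and the chaperone Psmg2 (0.60), while the chaperones Psmg4 (-0.44) and Pomp (-0.38) were lower. Of 7 genes listed under control of proteasome genes 3 rose, with Foxo3 at 1.51 and Nfe2l2 at 0.23, and 3 fell, with Foxo1 at -1.44 and Nfe2l1 at -0.68. This list also holds genes that are not transcription factors, such as the proteasome-binding Zfand5. Of 10 ubiquitin and shuttling genes 2 rose (Nploc4 0.55, Ufd1 0.51) and 4 fell (among them Ubqln2 -0.89 and Uba6 -0.73). Where the immunoproteasome delivers its peptides, all 11 MHC class I presentation genes fell, with a median of -0.96, including the transactivator Nlrc5 (-1.20) and the peptide transporter genes Tap1 (-1.17) and Tap2 (-1.09). Of 12 interferon signalling genes and targets 7 fell and 2 rose, with a median of -0.45; Irf1, which induces immunoproteasome genes, changed by -1.19, Irf8 by -1.26 and Gbp2 by -1.40, against Igtp at 0.31. These lists were drawn up with earlier results of these data known and support no direction.

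Markers of cell types moved in the same spleen samples, again beside 32.4% of all genes higher and 32% lower. B cell markers fell in 7 of 7 genes, with a summed intensity of 35100 to 41600 on vehicle arrays and 7090 to 18700 on 2BE arrays. T cell markers fell in 6 of 7 and rose in 1 (6250 to 7330 against 1860 to 3470), with Cd8a higher by 0.49. NK cell markers fell in 5 of 5 (3220 to 5140 against 1040 to 1590) and plasma cell markers in 5 of 5 (28600 to 33400 against 13900 to 17700). Erythroid markers rose in 8 of 8 (8870 to 23000 against 71000 to 85100), and proliferation markers in 9 of 9 (11100 to 19500 against 52500 to 63900). Among the erythroid markers Hba-a1 was dim, with means of 27.6 and 35.4. Macrophage markers fell in 6 of 10 and rose in 1 (25400 to 31100 against 17200 to 24100), and endothelial markers fell in 6 of 6 (4510 to 5810 against 2330 to 3000). Adipocyte markers fell in 2 of 4 (276 to 7330 against 223 to 291), pancreatic acinar markers rose in 3 of 4 (786 to 849 against 1440 to 1670), hepatocyte markers rose in 3 of 6 (379 to 515 against 444 to 581), and 0 of 8 neutrophil markers passed. Most of the acinar sum was Cela1, with means of 558 and 1255. Cela1 was not particular to acinar tissue, with a mean of 2327 in vehicle liver at 7 d. The hepatocyte markers that rose were dim: Ttr (159 to 204), Tat (66.8 to 81.4) and Apob (30.1 to 35.9). Of 5 bone cell markers 1 rose and 1 fell (3660 to 4060 against 3660 to 4570). Most of that sum was Acp5, with means of 3335 and 3481, and the marker that rose, Ibsp, was dim (22.6 and 26.3). The part of these markers in the proteasome changes was not tested.

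In bone marrow at 7 d the same 3 immunoproteasome genes were lower, but by less, and Psme1 did not pass. There 12 members were higher and 3 lower, 34.1% of the 44, beside 20.1% of all genes (9.4% higher and 10.7% lower). Psmb8, Psmb9 and Psmb10 were the 3 that fell. The arms did not overlap for 8 members in the upward and 3 in the downward direction, beside 7.55% and 8.45% of all genes. Without the first vehicle replicate, 9 members passed, 6 higher and 3 lower.

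Psmb8 read 1786, 1677, 1748, 1800 and 1713 with vehicle and 1277, 1094, 1114, 1161 and 1425 with 2BE, a 1.44-fold fall (-0.53, SE 0.07, adjusted p = 0.00014), or -0.35 as the average of its probe sets. Psmb9 read 1561, 1265, 1330, 1370 and 1426 against 1132, 954, 978, 1122 and 1151 (1.30-fold lower, -0.38, SE 0.07, adjusted p = 0.0020). Psmb10 read 864, 790, 814, 828 and 818 against 658, 528, 607, 592 and 680 (1.35-fold lower, -0.43, SE 0.07, adjusted p = 0.00044). Every 2BE array was below every vehicle array in these 3 genes. Psme1 overlapped between arms, at 2527, 2244, 2362, 2467 and 2221 with vehicle and 2191, 2127, 2234, 2395 and 2581 with 2BE (-0.04, SE 0.06, adjusted p = 0.73). The catalytic Psmb5 (0.01), Psmb6 (-0.02) and Psmb7 (0.02) gave adjusted p-values of 0.83 to 0.89, with SEs of 0.05 to 0.06.

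The genes that rose in marrow did so by small amounts. Of the 17 regulatory particle genes 6 passed, all higher, where 9.4% of all genes were higher. All 17 had a positive sign, with a median of 0.13. The 10th to 90th percentile of all genes ran from -0.21 to 0.20. The count passing was 4 to 7 under the alternatives that kept all arrays and 3 to 6 on leaving out each array. It fell to 3 without vehicle replicate 1, vehicle replicate 3 or 2BE replicate 4, where Psmc5, Psmd11 and Psmd12 lost their calls. None of the 7 constitutive beta genes and 1 of the 7 alpha genes passed. Psmd5, the ring chaperone, read 935, 1100, 1008, 1043 and 1047 with vehicle and 1250, 1219, 1273, 1207 and 1172 with 2BE (0.26, SE 0.05, adjusted p = 0.0041), with no overlap. Psmd9 read 454, 534, 502, 507 and 490 against 642, 613, 584, 631 and 572 (0.29, SE 0.06, adjusted p = 0.0025), though its other probe sets changed little and their average did not pass (0.10, adjusted p = 0.20).

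Psmc4, an ATPase, had the largest passing rise in marrow, 0.44 (SE 0.12, adjusted p = 0.015), but its arms overlapped, at 2109, 1374, 1772, 1644 and 1422 with vehicle and 1986, 1983, 2516, 2642 and 2117 with 2BE, its other probe set changed by 0.02 and the average of both by 0.23. Psme3 was close to the threshold at 0.26 (SE 0.09, adjusted p = 0.0496), with 990, 1424, 1175, 1351 and 1364 against 1556, 1507, 1580, 1414 and 1437. Its call was lost on leaving out vehicle replicate 1, 3 or 4 or any 1 of the 5 2BE arrays, with adjusted p-values of 0.053 to 0.11, and in 5 other settings. Psma1 (0.24, adjusted p = 0.0073) did not pass as the mean of its probe sets (0.04, adjusted p = 0.69). Psma8 was dim, at 37 to 47 with vehicle and 47 to 52 with 2BE (0.24, adjusted p = 0.022), and lost its call without vehicle replicate 1 (adjusted p = 0.053) or 4 (0.059) and with array weights (0.054); it was too dim to be tested under a filter on low values.

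Around the proteasome, genes of the same lists also moved in marrow, where 9.4% of all genes were higher and 10.7% lower. Psmf1 rose by 0.45, Usp14 by 0.30 and Psmg2, an assembly chaperone, by 0.20, among 4 of 11 bound factors that were higher and none lower. Foxo3 rose by 0.44 while Foxo1 (-0.91) and Nfe2l1 (-0.22) fell, and 2 of 10 ubiquitin genes rose (Nploc4 0.22, Ufd1 0.18). Of the 11 MHC class I genes 6 fell, among them Nlrc5 (-0.56) and H2-K1 (-0.46), with a median of -0.21. Of the 12 interferon genes 3 fell: Irf8 (-0.53), Stat2 (-0.24) and Irf1 (-0.22). B cell markers fell in 7 of 7 genes, with sums of 7120 to 8910 on vehicle and 2120 to 3550 on 2BE arrays, while erythroid markers rose in 6 of 8 (44100 to 55100 against 62100 to 67800) and proliferation markers in 7 of 9 (43600 to 48000 against 50600 to 53800). Bone cell markers fell in 2 of 5 (15800 to 20700 against 4670 to 13900; Col1a1 -1.89, Ibsp -0.57), plasma cell markers in 2 of 5 (7040 to 8520 against 5810 to 6750) and endothelial markers in 2 of 6 (1450 to 1640 against 1140 to 1360). Smaller numbers fell among macrophage (2 of 10), neutrophil (2 of 8), T cell (1 of 7), NK cell (1 of 5) and adipocyte markers (1 of 4), and 1 of 4 pancreatic acinar markers rose (Cela1, 0.20). The part of all these markers in the proteasome changes of the marrow was not tested.

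**Figure D4:**
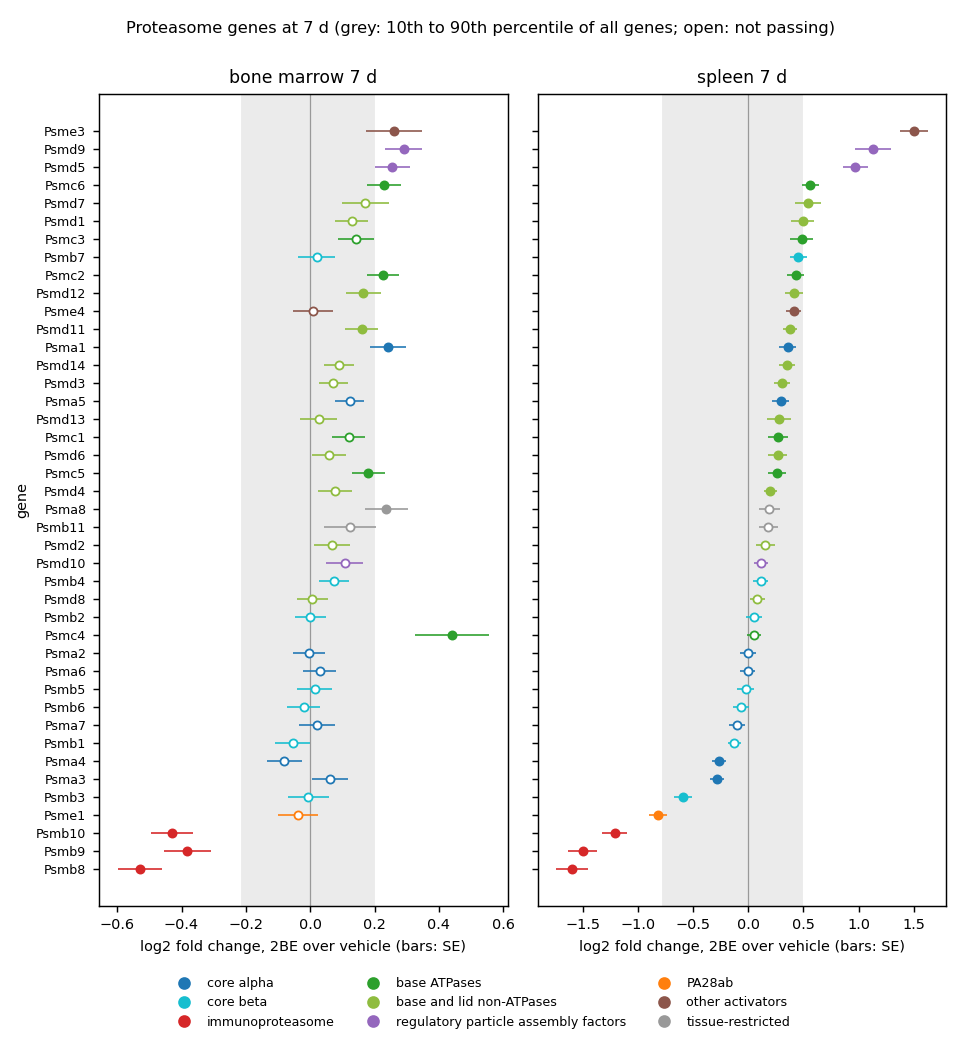
The 42 proteasome genes ordered by their log2 change in the spleen at 7 d, with bone marrow at 7 d on the left and spleen at 7 d on the right (different scales); bars are SE, filled points passed and open points did not, and the grey band holds the 10th to 90th percentile of all genes. The immunoproteasome genes stand at the low end in both tissues, and the spleen band (-0.77 to 0.49) is wider than the marrow band (-0.21 to 0.20).

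In the spleen at 4 h 1 member passed, the lid subunit Psmd11 (2.27%), beside 5.16% of all genes (3.31% higher and 1.85% lower), and 15 of 44 had an unadjusted p under 0.05. Psmd11 read 2574, 2184, 2490 and 2278 with vehicle and 2762, 2572, 3033 and 3109 with 2BE (0.27, SE 0.07, adjusted p = 0.027). Its call was lost without vehicle replicate 2 or 4 or 2BE replicate 3 or 4 (adjusted p 0.076 to 0.11), with all probe sets averaged (0.08, adjusted p = 0.47), with only the 2 groups compared (adjusted p = 0.147) and with the replicate number as a block (adjusted p = 0.146).

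The 3 immunoproteasome genes already lay apart between arms at 4 h in the spleen, without passing the test. Psmb8 read 2947, 3314, 2571 and 3137 with vehicle and 2263, 2496, 1846 and 1983 with 2BE (-0.48, SE 0.16, adjusted p = 0.095). Psmb9 read 1850, 1889, 1594 and 1833 against 1450, 1418, 1177 and 1146 (-0.47, SE 0.15, adjusted p = 0.078). Psmb10 read 1190, 1332, 1176 and 1277 against 994, 995, 881 and 829 (-0.43, SE 0.13, adjusted p = 0.062). All 2BE arrays were below all vehicle arrays in these genes, as in 4 of the 44 members and 6.95% of all genes; 2 members lay wholly above, beside 4.78%. Between 1 and 3 of these genes passed in 5 of the alternative settings, array weights among them (adjusted p 0.013 to 0.019).

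The other named members of the 4 h spleen did not pass. Psme1 read 3159, 3419, 2686 and 3033 with vehicle and 2988, 2629, 2589 and 2445 with 2BE, with overlap (-0.21, SE 0.09, adjusted p = 0.23). Psmb5 (0.02), Psmb6 (0.04) and Psmb7 (0.09) had SEs of 0.08 to 0.09 and adjusted p-values of 0.63 to 0.92. In the wider pathway Nfe2l2 (0.42), Zfand5 (0.54, a proteasome-binding protein) and the ubiquitin receptor Sqstm1 (0.67) rose, and Tapbpl (-0.40) and Igtp (-0.47) fell. Of all genes 3.31% were higher and 1.85% lower in this set. Of the NK cell markers 2 of 5 fell at this time (summed 1890 to 3050 on vehicle against 1530 to 1680 on 2BE arrays), and of the B cell markers 0 of 7 (13100 to 28700 against 12700 to 19800). Adipocyte markers summed to 180 to 512 on vehicle and 841 to 7160 on 2BE arrays, with 1 of 4 passing (Fabp4, 2.81, SE 0.73, adjusted p = 0.029). Of the plasma cell markers 1 of 5 fell (18000 to 23400 against 16200 to 21200), and of the endothelial markers 1 of 6 rose (2510 to 3430 against 2520 to 3290). The vehicle arrays differed widely among themselves in summed neutrophil markers (19800 to 113000 against 25700 to 44400). They also did in erythroid (27400 to 52300 against 27100 to 41800) and proliferation markers (17800 to 37600 against 19600 to 35100). No marker of these 3 lists passed. The part of these markers in the values of the 4 h spleen was not tested.

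In the liver no member passed by limma at either time: 0 of 44 at 4 h, where 6 had an unadjusted p under 0.05 and 4.51% of all genes passed (3.24% higher and 1.27% lower), and 0 of 44 at 7 d, where 1 had an unadjusted p under 0.05 and 0.748% of all genes passed (0.506% higher and 0.242% lower). At 4 h all 2BE arrays lay above all vehicle arrays for 4 members and below for 1, beside 6.6% and 4.49% of all genes. At 7 d the counts were 0 and 1, beside 3.05% and 2.28%.

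Psmb8 in the liver at 4 h read 512, 351 and 608 with vehicle and 451, 378, 595 and 542 with 2BE (0.02, SE 0.17, adjusted p = 0.98). Psmb9 was the lone member lying wholly below, at 257, 270 and 346 with vehicle and 229, 150, 231 and 246 with 2BE (-0.45, SE 0.15, adjusted p = 0.095), and it passed after a further quantile normalization (adjusted p = 0.034). Without 2BE replicate 2, the array at 150, the change was -0.29 (adjusted p = 0.16). Psmb10 (-0.05) and Psme1 (0.01) had adjusted p-values of 0.89 and 0.99, and Psmb5 (0.05), Psmb6 (-0.03) and Psmb7 (-0.04) of 0.76 to 0.91. The transcription factor Foxo1 rose by 0.91 in the same samples (adjusted p = 0.0064). There 1 of 6 hepatocyte markers (Tat, 1.60) and 1 of 4 adipocyte markers (Fabp4, 1.49) rose, beside 3.24% of all genes. Of the endothelial markers 1 of 6 fell (Kdr, -0.59), beside 1.27% of all genes. The part of these markers was not tested.

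At 7 d the immunoproteasome genes of the liver had a positive sign. Psmb8 read 654, 500, 532 and 628 with vehicle and 751, 653, 706, 664 and 776 with 2BE (0.30, SE 0.15, adjusted p = 0.47). Psmb9 read 410, 334, 348 and 354 against 474, 392, 432, 464 and 397 (0.26, SE 0.13, adjusted p = 0.48). The arms overlapped in both. Psmb10 (0.13), Psme1 (0.15), Psmb5 (0.04), Psmb6 (0.02) and Psmb7 (0.06) did not pass either, with adjusted p-values of 0.58 to 0.97. Nlrc5, the MHC class I transactivator, rose by 0.48 (adjusted p = 0.011). Of the macrophage markers 2 of 10 rose (summed 5410 to 6450 on vehicle against 7270 to 10300 on 2BE arrays). So did 1 of 8 erythroid markers (Slc4a1, 0.56) and 1 of 6 hepatocyte markers (Tat, 0.89), beside 0.506% of all genes higher. The part of these markers was not tested.

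Set against each other on the same array, the 4 measured immunoproteasome and PA28 genes and the 31 constitutive subunits moved apart most in the spleen at 7 d. The mean log2 level of the first minus that of the second changed by -1.45 there, by -0.43 in marrow, by -0.49 in spleen at 4 h, by -0.16 in liver at 4 h and by 0.19 in liver at 7 d. Counted from the vehicle mean of each set, the 2BE arrays ran from -1.91 to -1.19 in spleen at 7 d and from -0.50 to -0.30 in marrow, clear of the vehicle arrays (-0.06 to 0.10 and -0.07 to 0.10). In spleen at 4 h they ran from -0.76 to -0.22 and overlapped the vehicle arrays (-0.34 to 0.26). This measure was chosen with results known and carries no test.

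**Figure D5:**
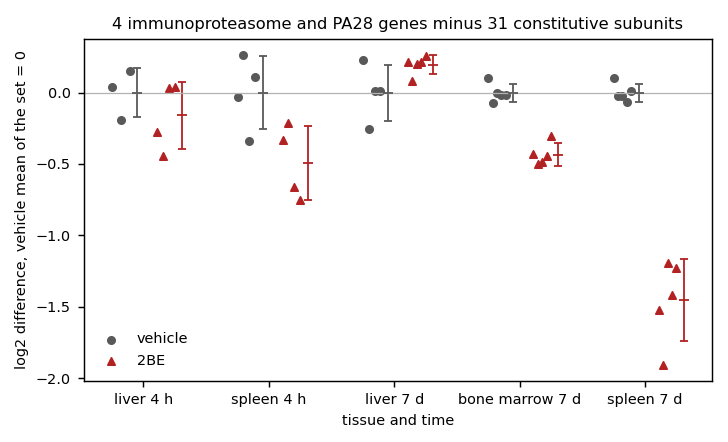
For each array, the mean log2 intensity of Psmb8, Psmb9, Psmb10 and Psme1 minus the mean of the 31 constitutive subunits, with the vehicle mean of each set placed at 0; grey circles are vehicle, red triangles 2BE, and bars the mean ± SD. The 2BE arrays of spleen and marrow at 7 d lie below all vehicle arrays of their set, and those of the liver do not.

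The difference between responses was tested directly by limma contrasts. Between 7 d and 4 h in the spleen 17 of 44 members differed (38.6%; 11 higher and 6 lower at 7 d), beside 51.3% of all genes (25.6% higher and 25.6% lower). Psme3 differed most, from -0.31 at 4 h to 1.50 at 7 d (difference 1.82, SE 0.19, adjusted p = 1.8e-06). Psmd9 differed by 1.00 (adjusted p = 0.0024) and Psmd5 by 0.86 (adjusted p = 0.00066), and Psmc3ip by 1.39 (adjusted p = 0.00072). Psmb8 (-1.12, SE 0.21, adjusted p = 0.00042), Psmb9 (-1.03, SE 0.20, adjusted p = 0.00043) and Psmb10 (-0.78, SE 0.17, adjusted p = 0.0013) had the more negative change at 7 d. Psmb3 went from 0.26 to -0.59 (difference -0.85, adjusted p = 3.9e-05), while its other probe set changed by 0.17 and -0.04. Because the spleen arrays of the 2 times form separate sets, time and set cannot be told apart in the levels; each response was taken within its own set.

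Between spleen and liver at 7 d 28 members differed (63.6%; 20 higher and 8 lower in spleen), beside 57% of all genes (27.4% higher and 29.6% lower). Psmb8 differed by -1.90 (SE 0.17, adjusted p = 2.2e-10), Psmb9 by -1.76 (SE 0.16, adjusted p = 3.6e-10), Psmb10 by -1.34 (SE 0.15, adjusted p = 7.4e-09) and Psme1 by -0.96 (SE 0.10, adjusted p = 4.5e-09). In the other direction Psme3 differed by 1.44, Psmc3ip by 1.34, Psmd9 by 0.94 and Psmd5 by 0.94, each with an adjusted p of 9.1e-09 or less.

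Between marrow and spleen at 7 d 23 members differed (52.3%; 7 higher and 16 lower in marrow), beside 44.9% of all genes (25% higher and 19.9% lower). The falls in marrow were smaller for Psmb9 (difference 1.12, SE 0.16, adjusted p = 1.4e-06), Psmb8 (1.07, SE 0.17, adjusted p = 6.4e-06) and Psmb10 (0.78, SE 0.14, adjusted p = 4.9e-05), and Psme1 differed by 0.78 (SE 0.10, adjusted p = 2.2e-07). The rises were smaller in marrow for Psme3 (-1.24), Psmc3ip (-1.21), Psmd9 (-0.84) and Psmd5 (-0.72), with adjusted p-values from 3.2e-09 to 6.1e-07. With all probe sets averaged, the Psmd9 difference was 0.44 between times, 0.41 between spleen and liver and -0.43 between marrow and spleen, the Psme3 difference between marrow and spleen was -0.81 and the Psmb3 difference between times -0.53, all still past the threshold. These 3 sets of differences share the spleen arrays of 7 d and are not independent of each other.

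No member differed between liver at 7 d and at 4 h (0 of 44, beside 0.269% of all genes, with 0.0989% higher and 0.17% lower), nor between spleen and liver at 4 h (0 of 44, beside 1.78%, of which 0.934% higher and 0.841% lower). For Psmb8 the spleen minus liver difference at 4 h was -0.50 (SE 0.25, adjusted p = 0.43) and for Psmb10 -0.38 (SE 0.15, adjusted p = 0.27), while the Psmb9 difference was -0.02 (SE 0.21, adjusted p = 0.99).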

How the data were processed

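Samples of 3 tissues were hybridised to 44 Affymetrix arrays in 10 groups of 3 to 5. The deposited values are linear intensities made by the authors with RMA, per the submitters' processing notes; its version and the chip description are not given in the sources used here. RMA shares information between the arrays of a run, and array medians form 5 sets that may have been normalized separately. Of 45101 probe sets, 64 controls, 932 with several symbols and 9160 with none were left out; 34945 gave 18193 genes, each represented by its brightest probe set on average (91 probe sets for the 44 members, 21 members with 1). Intensities run from 6.16 to 47797.8; the files hold no detection calls, so the number of arrays limits precision, and no filter on low values was applied: all 44 members were tested.

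In R 4.3.3, limma 3.58.1 (lmFit on group means per tissue, eBayes) tested log2(value + 1), two-sided, with Benjamini-Hochberg adjustment over all genes and a threshold of 0.05. The procedure was tested on simulated data. Of added log2 changes of 0.25 it called 12% in liver at 4 h, 14% in spleen at 4 h and 30% in liver at 7 d. In marrow it called 36% of them and in spleen at 7 d 22%. Of changes of 0.5 it called 64% (liver at 4 h) to 88% (marrow). Small changes of members that did not pass could thus be missed. Differences between responses were contrasts within a tissue or within a time. Named members were Psmb5 to Psmb10 and Psme1 in each comparison, up to 6 further members per direction with the largest passing change, up to 4 per direction for differences, and up to 3 genes per list with the largest passing change. Named outside this rule, after their values were seen, were Psma1, Psma5, Psma8, Psmb11, Psmc2, Psmc3, Psmc4, Psmd1, Psmd2, Psmd8, Psmd10 and Psme4 in spleen at 7 d, Psmc5, Psmd11 and Psmd12 in marrow, Psmg4, Pomp, Nfe2l2, Ufd1 and Igtp from the lists in spleen at 7 d, and the marker genes named singly. The members and lists were chosen with earlier results of these data known. Same-numbered arrays of liver at 4 h correlated at 0.132 to 0.282 in their deviations from group means. Those of spleen at 4 h correlated at -0.381 to 0.543 and those of marrow at -0.0881 to 0.164. These values do not establish a pairing, no label states one, and the main test used none. With the replicate number as a block, 0 members passed in liver at 4 h, as without it. Alternatives were the pseudocount, a filter on low values, the mean of all probe sets, only the 2 groups, the variance model, array weights, a further quantile normalization, the block and leaving out each array. Promoters are those of RefSeq (GRCm38.p6).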

Additional observations from a re-analysis of the deposited data

Results flagged for a closer look

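Of 97 groups of 4 or 5 arrays, one for each named member and group, 5 (5.15%) held an array far from the others, and chance alone flags about 1 in 20. Psmb9 read 150 in 2BE replicate 2 of liver at 4 h, against 229 to 246 on the other arrays. Psmb5 read 2570 in 2BE replicate 1 of liver at 4 h, against 2430 to 2440. Psme3 read 452 in vehicle replicate 1 of spleen at 7 d, against 608 to 676. Psmb3 read 1410 in 2BE replicate 5 of spleen at 7 d, against 992 to 1060. Psma3 read 5150 in vehicle replicate 1 of spleen at 7 d, against 4420 to 4620.

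Responses that differed between times or tissues by the limma contrast, as differences of log2 changes, were these. In spleen, 7 d minus 4 h, they were Psme3 (1.82), Psmc3ip (1.39), Psmd9 (0.997), Psmd5 (0.857), Psmb8 (-1.12), Psmb9 (-1.03), Psmb3 (-0.852) and Psmb10 (-0.778). At 7 d, spleen minus liver, they were Psme3 (1.44), Psmc3ip (1.34), Psmd9 (0.939), Psmd5 (0.938), Psmb8 (-1.9), Psmb9 (-1.76), Psmb10 (-1.34) and Psme1 (-0.964). At 7 d, bone marrow minus spleen, they were Psmb9 (1.12), Psmb8 (1.07), Psme1 (0.78), Psmb10 (0.778), Psme3 (-1.24), Psmc3ip (-1.21), Psmd9 (-0.842) and Psmd5 (-0.717). Adjusted p-values ran from 2.188e-10 (Psmb8, spleen minus liver) to 0.002401 (Psmd9, spleen 7 d minus 4 h).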

How the results depend on the processing

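Of 1567 values of named members under an alternative, 1528 kept their side of the threshold, 27 lost it, 12 gained it and 0 reversed with a call; 26 that passed in neither changed sign. The cause of each change was not tested. In liver at 4 h, 0 members passed, and 1 did with a pseudocount of 32 (Psmd12) or a further quantile normalization (Psmb9). In spleen at 4 h, 1 member passed; the count was 3 with a pseudocount of 32, 4 with a filter on low values, 2 with only the 2 groups, 7 with array weights, 5 with a further quantile normalization and 2 with the replicate block (Psmb8 and Psmb9, both lower). Vehicle and 2BE arrays of the same number share only that number in the labels. With the block, 13 members passed in marrow (Psmd12 and Psme3 lost) and 29 in spleen at 7 d (Psme3ip1 lost), and 0 in liver at either time. Leaving out each array in turn gave 0 members in liver at either time, 0 to 3 in spleen at 4 h, 9 to 15 in marrow and 29 to 32 in spleen at 7 d. It gave 13 to 21 for the spleen time difference, 26 to 29 for spleen minus liver at 7 d and 21 to 26 for marrow minus spleen. The spleen 4 h count fell to 0 without vehicle replicate 2 or 4 or 2BE replicate 3 or 4, and rose to 2 without vehicle replicate 1 and to 3 without vehicle replicate 3 or 2BE replicate 2. The median change of the immunoproteasome and PA28 genes minus that of the constitutive subunits ranged from -1.69 to -1.49 in spleen at 7 d, -0.506 to -0.442 in marrow, -0.633 to -0.398 in spleen at 4 h, 0.105 to 0.26 in liver at 7 d and -0.191 to 0.00689 in liver at 4 h. Over genes that pass a filter on low values, 28.9% were higher and 47.1% lower in spleen at 7 d, against 32.4% and 32% over all genes.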
